A study of Homo sapiens with 3 samples.

Results

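Immediate early genes are switched on within minutes of a growth factor or stress signal, without the need for new protein synthesis. In the best-known route, growth factor receptors act through RAS, RAF, MEK and ERK on transcription factors such as SRF and its ELK partners, which bind the promoters of EGR1, JUNB and similar genes. The products are often transcription factors themselves, such as EGR1, the AP-1 subunits JUN and JUNB, and MYC, while phosphatases such as DUSP4 and DUSP6 remove the activating phosphates from MAP kinases and so close a feedback loop. In breast cancer cells this circuit is known for its links to proliferation and invasion.

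The data describe 7 such genes, EGR1, IER2, JUNB, JUN, MYC, DUSP4 and DUSP6, of 14884 named genes on the array. They were taken by name from the platform annotation, with all their probe sets, which came to 8 because EGR1 had 2. The 7 genes had been selected on values of these same arrays, so their differences are given as a description and were not tested. MDA-MB-231 is a human cell line derived from triple-negative breast cancer, and the cells were kept for 72 h in 10 µM Mt-CFX, 10 µM CFX or 1% DMSO as the vehicle control. Earlier times were not measured, so these values do not show a response within minutes. The labels state a DMSO content for the control alone. The study's title names ciprofloxacin, a fluoroquinolone antibiotic, and Mt-CFX is known here by its code name.

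Each group was 1 array. With no repeats, the values carry no replicate error, differences could not be set against the spread between cultures, and no test was made. Mt-CFX was compared with the control, CFX with the control and Mt-CFX with CFX, so that any pair of these 3 comparisons shares an array. Values are log2 expression values per probe set, normalised by the authors so that the arrays have near-equal distributions. The medians of all probe sets were 3.88 with Mt-CFX, 3.90 with CFX and 3.91 in the control. The 8868 protein-coding genes with a value of at least 3.89 log2 on some array, the median over all probe sets and arrays, served as the background, and all 7 genes were among them. All 5 measured genes of the mesenchymal and basal marker list for this line, VIM, CD44, MET, AXL and MSN, were above that level on each array. Of 10 measured luminal epithelial markers 8 reached that level on at least 1 array, among them KRT18, ESR1 and EPCAM. The level is only the median of all probe sets, so reaching it does not show that a gene was expressed. The luminal markers PGR and ELF5, the fibroblast markers DCN and LUM, the endothelial markers PECAM1 and VWF, and CD14 and LYZ of myeloid cells were below it on all arrays, whereas CD68, also on the leukocyte list, was above it. Since RNA was taken from whole dishes, a smaller share of expressing cells and less RNA per cell cannot be told apart.

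The promoters of the genes on which the results turn are shown from 250 bases before to 50 bases after the transcription start, because these genes are textbook targets of signal-driven transcription factors. Sequences are from RefSeq on GRCh38.p14, and windows of 5 of the 7 genes were used here. Both strands were searched for the CArG box, which SRF binds, for the AP-1 site TGANTCA, the cyclic AMP response element TGACGTCA, the EGR site GCGNGGGCG, the E-box CACGTG of MYC, the C/EBP-ATF element TGATGNAA and the ETS core CCGGAA. A further motif, TGACATCA, the variant known from the JUN promoter, was searched after the sequences had been seen. Matches are in capitals.
EGR1, chr5:138465229-138465528, plus strand: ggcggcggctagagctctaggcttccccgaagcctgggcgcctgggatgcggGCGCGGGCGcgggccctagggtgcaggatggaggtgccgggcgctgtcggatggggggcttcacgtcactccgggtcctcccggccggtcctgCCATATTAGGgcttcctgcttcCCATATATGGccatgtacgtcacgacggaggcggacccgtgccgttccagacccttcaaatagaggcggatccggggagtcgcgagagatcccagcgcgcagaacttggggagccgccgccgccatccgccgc
IER2, chr19:13150161-13150460, plus strand: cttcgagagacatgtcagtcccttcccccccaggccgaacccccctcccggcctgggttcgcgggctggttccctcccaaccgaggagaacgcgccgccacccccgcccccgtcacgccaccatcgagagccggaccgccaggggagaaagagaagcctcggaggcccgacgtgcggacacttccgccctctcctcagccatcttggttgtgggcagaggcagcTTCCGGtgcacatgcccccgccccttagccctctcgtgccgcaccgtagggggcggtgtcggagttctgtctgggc
JUNB, chr19:12791236-12791535, plus strand: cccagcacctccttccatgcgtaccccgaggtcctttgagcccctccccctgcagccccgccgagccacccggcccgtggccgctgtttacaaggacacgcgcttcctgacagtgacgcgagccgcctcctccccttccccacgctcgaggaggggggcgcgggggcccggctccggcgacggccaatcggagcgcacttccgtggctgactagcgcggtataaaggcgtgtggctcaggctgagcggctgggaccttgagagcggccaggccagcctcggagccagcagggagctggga
JUN, chr1:58783998-58784297, minus strand: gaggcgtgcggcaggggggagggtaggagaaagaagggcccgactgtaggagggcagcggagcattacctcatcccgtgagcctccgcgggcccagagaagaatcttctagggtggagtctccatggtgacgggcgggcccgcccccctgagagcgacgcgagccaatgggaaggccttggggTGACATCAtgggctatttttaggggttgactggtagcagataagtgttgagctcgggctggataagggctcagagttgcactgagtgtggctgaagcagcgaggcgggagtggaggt

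The EGR1 window held 2 CArG boxes, beginning 105 and 83 bases before the start, and an EGR site beginning 198 bases before it. Over all 34943 promoter windows of this length, 1.30% held a CArG box and 9.41% an EGR site. The IER2 window held an ETS core on the opposite strand, 26 bases before the start, as 17.2% of all windows did. The JUN window held TGACATCA 67 bases before the start, which 2.61% of all windows did. The JUNB and DUSP6 windows held no match. An AP-1 site was present in 7.72% of all windows, TGACGTCA in 1.84%, CACGTG in 7.23% and TGATGNAA in 3.62%, and in none of the 5 windows searched here. These matches are a description of letters and say nothing about binding in these cells.

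**Figure D1:**
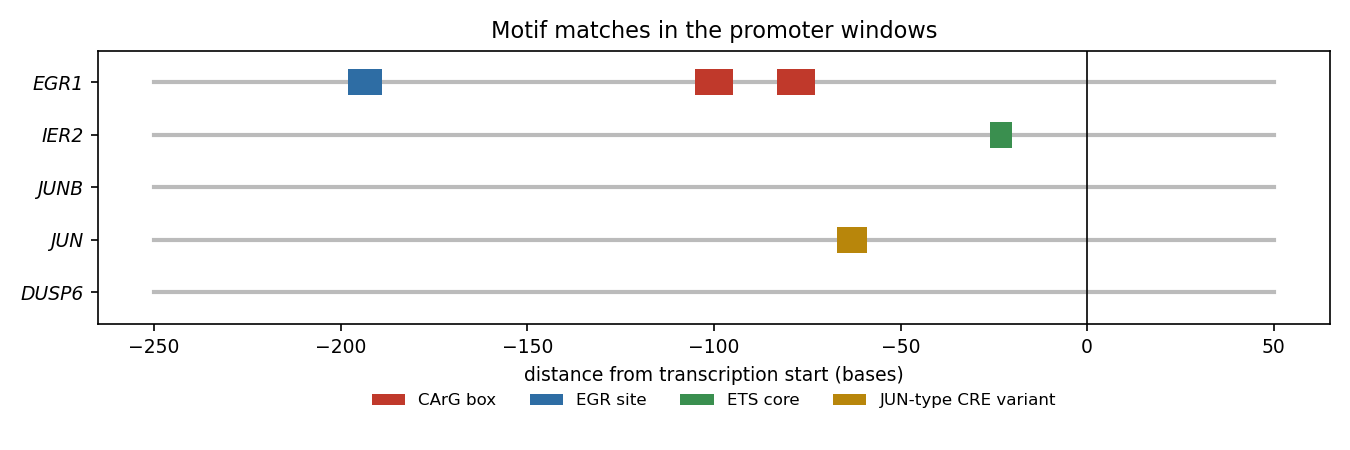
Motif matches in the promoter windows of 5 genes, drawn by distance from the transcription start in bases, with upstream to the left. EGR1 has 2 CArG boxes between the EGR site and the start, IER2 an ETS core, JUN the TGACATCA variant, and JUNB and DUSP6 no match.

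EGR1 encodes a zinc finger transcription factor that is among the most responsive of all immediate early genes. Its value was 9.06 log2 with Mt-CFX, 6.17 with CFX and 5.92 in the control at the probe set with the higher mean. The Mt-CFX array thus stood far above the others, by 3.14 log2 or 8.82-fold over the control and by 2.88 log2 or 7.37-fold over CFX, while CFX was higher than the control by 0.26 log2 or 1.20-fold. Both Mt-CFX differences were the highest of all 8868 genes, whereas in CFX over control EGR1 was number 157 from the highest. These places hold for this probe set, and with the mean of its probe sets EGR1 was number 3 in both Mt-CFX comparisons, below GDF15 and DDIT4. At the other EGR1 probe set the values were 5.17 log2 with Mt-CFX, 3.64 with CFX and 3.53 in the control. The order of the arrays was the same there, with a difference of 1.64 log2 or 3.12-fold for Mt-CFX over the control, 1.54 log2 for Mt-CFX over CFX and 0.11 log2 for CFX over the control. For this probe set both the CFX and the control value lay under 3.89 log2, which makes the sizes of its Mt-CFX differences uncertain.

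IER2, a small nuclear protein induced with EGR1 in many settings, was at 6.46 log2 with Mt-CFX, and at 5.63 log2 both with CFX and in the control. The CFX and control values were identical in the file, and Mt-CFX was higher than each by 0.84 log2 or 1.79-fold. JUNB, an AP-1 subunit that often restrains JUN, was at 6.48 log2 with Mt-CFX, 5.67 with CFX and 5.77 in the control. Mt-CFX was higher than the control by 0.71 log2 or 1.64-fold and higher than CFX by 0.82 log2 or 1.76-fold, and CFX differed from the control by −0.10 log2. In both genes the Mt-CFX array was the highest, and in JUNB the CFX array was the lowest.

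MYC, the driver of growth and ribosome production, was at 7.94 log2 with Mt-CFX, 7.38 with CFX and 7.06 in the control. Mt-CFX was higher than the control by 0.88 log2 or 1.84-fold and CFX by 0.32 log2 or 1.25-fold, and Mt-CFX was higher than CFX by 0.56 log2 or 1.48-fold. Of the 7 genes MYC had the highest difference in CFX over control, where 0.947% of all genes were higher. MYC and EGR1 followed the same order of arrays, Mt-CFX above CFX above control, which 7.47% of all genes did.

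JUN, the AP-1 subunit most often linked to proliferation, went the other way from JUNB. It was at 7.61 log2 with Mt-CFX, 8.04 with CFX and 8.16 in the control. Mt-CFX differed from the control by −0.55 log2, a level of 0.683 of the control, and from CFX by −0.43 log2, while CFX differed from the control by −0.12 log2. The control was the highest of the 3 arrays and Mt-CFX the lowest, an order shared by 5.37% of all genes.

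Of the phosphatases, DUSP4, which acts on ERK and other MAP kinases in the nucleus, was at 7.19 log2 with Mt-CFX, 7.85 with CFX and 7.63 in the control. The compounds lay on opposite sides of the control, by −0.45 log2 for Mt-CFX and 0.22 log2 for CFX, as they did with the signs turned for JUNB. Mt-CFX differed from CFX by −0.67 log2, a level of 0.631 of that with CFX. DUSP6, an ERK phosphatase of the cytoplasm, was at 9.22 log2 with Mt-CFX and with CFX, identical in the file, and at 9.30 log2 in the control. Its difference from the control was −0.08 log2 with each compound, and 15.8% of all genes were lower in Mt-CFX over control.

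**Figure D2:**
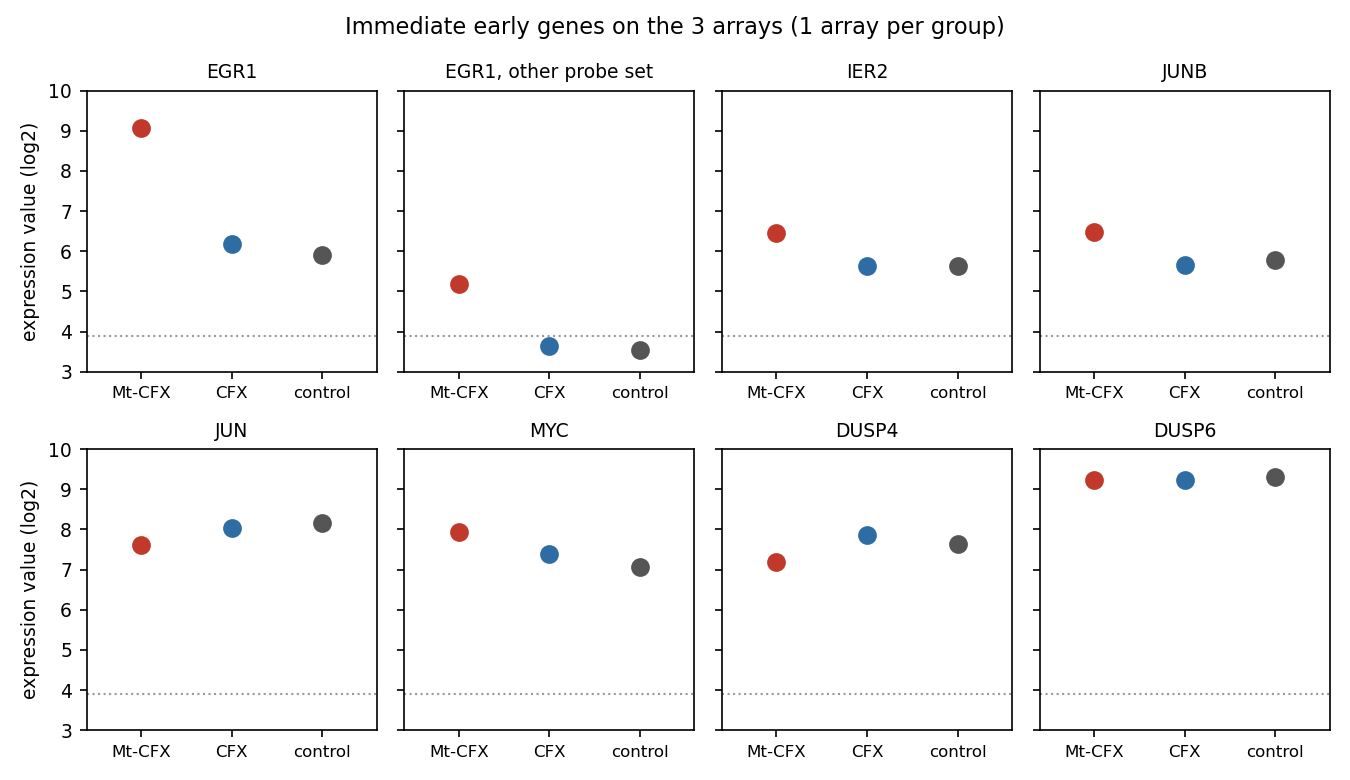
Expression values in log2 of the 8 probe sets on the Mt-CFX, CFX and control arrays, 1 point per array, with the median of all probe sets, 3.89 log2, as a dotted line. EGR1 at 9.06 with Mt-CFX stands clear of 6.17 and 5.92 on the other arrays, IER2 and JUNB are higher on the Mt-CFX array alone, and JUN and DUSP4 are lowest on it.

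Counted at 1.5-fold, 4 of the 7 genes were higher with Mt-CFX than in the control, EGR1, MYC, IER2 and JUNB, and 0 were lower. Of all 8868 genes 1.45% were 1.5-fold higher and 1.25% lower in that comparison. These values had entered the choice of the genes, so the count is not read against that share. JUN, at 1.46-fold lower, fell just short of the limit. At 2-fold EGR1 alone counted, where 0.304% of all genes did. With CFX 0 of the 7 genes were 1.5-fold higher or lower than in the control, against 0.0451% of all genes higher and 0.101% lower. Between the compounds 3 of the 7 were 1.5-fold higher with Mt-CFX than with CFX, EGR1, IER2 and JUNB, against 1.13% of all genes, and 1, DUSP4, was lower, against 1.03%. At 2-fold EGR1 alone counted between the compounds, where 0.259% of all genes did. The 7 genes were chosen on values of these arrays, so none of these counts is read against the shares of all genes. As a measure of the arrays as a whole, the central 95% of genes lay between −0.44 and 0.47 log2 in Mt-CFX over control, between −0.19 and 0.23 in CFX over control, and between −0.41 and 0.39 when the compounds were compared. In CFX over control, EGR1 at 0.26 and MYC at 0.32 lay above that range and the other 5 genes within it, but EGR1 lay within it at 0.11 with its other probe set and at 0.18 with the mean of both. Of all genes 52.9% had exactly equal values with Mt-CFX and in the control, and 59.2% with CFX and in the control, so the medians over all genes were 0.00 in each comparison. The rest were higher in 23.9% of genes and lower in 23.2% in Mt-CFX over control, and higher in 25.8% and lower in 15.0% in CFX over control, which are the shares beside which the lists below are given. Exactly equal values were thus common on these arrays, and equality is not read as a measured lack of change.

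**Figure D3:**
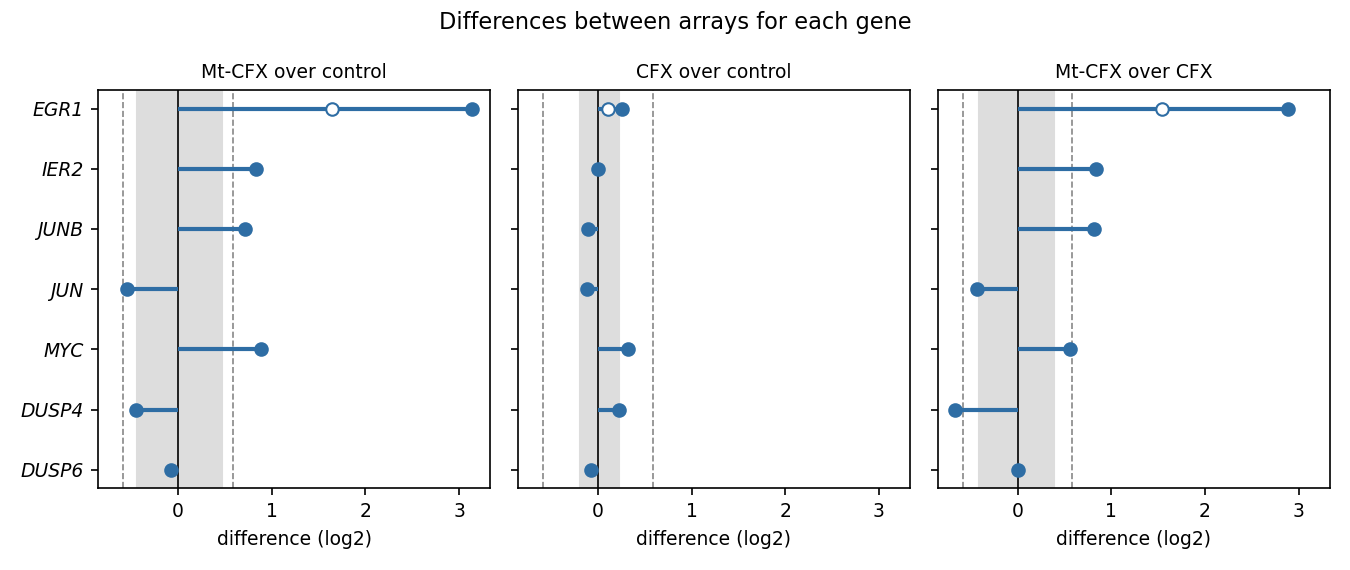
Log2 differences between arrays for the 7 genes in the 3 comparisons, with filled points for the probe set with the higher mean, an open point for the other EGR1 probe set, dashed lines at 1.5-fold and a grey band for the central 95% of 8868 genes. EGR1 reaches 3.14 in Mt-CFX over control, and in CFX over control EGR1 and MYC lie just above the band.

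Genes whose differences from the control with both compounds were nearest to those of each gene were found by Euclidean distance in log2, over 2 differences from 3 arrays. For EGR1 these were GDF15, a secreted stress cytokine, at a distance of 0.322, DDIT4, an inhibitor of mTOR signalling, at 0.568, and TRIB3, a stress-induced pseudokinase, at 1.18. GDF15 was higher by 2.82 log2 with Mt-CFX and by 0.32 with CFX, and DDIT4 by 2.58 and 0.30. For IER2 the nearest were the autophagy receptor gene SQSTM1 at 0.0097, TES at 0.0165 and OGT at 0.0354, and for JUNB they were NPIPA1 at 0.0575, ARRDC3 at 0.0642 and ASS1, an enzyme of arginine synthesis, at 0.0797. MYC was nearest to NRBF2 at 0.0447, HINT3 at 0.0717 and TCP11L2 at 0.0735. HINT3 had another probe set, equal on the 3 arrays and below the median of all probe sets. JUN was nearest to MEGF9 at 0.00797, NFE2L3 at 0.0215 and HSPG2 at 0.0230, and DUSP4 to the nuclease and helicase gene DNA2 at 0.00536, KIFBP at 0.00672 and CABLES2 at 0.0337. For DUSP6, whose differences were small, SIPA1, ADCY9 and RAPGEF1 were all within 0.00191. EGR1 lies in a sparsely filled range of differences, so its neighbours are further from it.

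Relatives of these genes were higher, lower or equal with Mt-CFX beside the control, in numbers that differed between the lists. The counts of relatives leave out the 7 genes themselves. Of the other EGR family genes and the NAB corepressors, 3 of 5 were above the median of all probe sets. Of these 2 were higher with Mt-CFX than in the control, 0 were lower and 1 was equal, with a median of 0.06 log2 beside 0.00 over all genes. NAB2, a corepressor that EGR1 is known to induce, was at 5.31 log2 with Mt-CFX, and at 4.86 on both other arrays, which put Mt-CFX higher by 0.45 log2. EGR3 differed by 0.06 log2 and NAB1 was equal on the 3 arrays, while EGR4 was below the median on all arrays.

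Of the other AP-1 genes 10 of 15 were measured, of which 5 were higher with Mt-CFX than in the control, 1 was lower and 4 were equal, with a median of 0.01 log2. ATF3, a stress-induced partner of JUN, was at 4.77 log2 with Mt-CFX, and at 4.08 on both other arrays, which put Mt-CFX higher by 0.69 log2 or 1.62-fold. ATF3 was the gene of these 10 that was at least 1.5-fold higher. MAFG was higher by 0.41 log2, and FOSL2 differed by −0.41, beside JUN at −0.55. FOSL1, a Fos-family AP-1 subunit, was at 9.27 log2 with Mt-CFX, and at 9.19 with CFX and in the control. FOS was higher by 0.11 log2 with each compound at the probe set used, MAFF by 0.01 with Mt-CFX, and FOSB, JUND, ATF2 and JDP2 were equal on the 3 arrays. Among the relatives of IER2, IER3, an inhibitor of cell death, was higher with Mt-CFX than in the control by 0.47 log2 and IER5 differed by −0.07. IER3 had 11 probe sets, whose differences ran from 0.12 to 0.54 log2.

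In the network of MYC partners and antagonists 10 of 12 genes were measured, of which 3 were higher with Mt-CFX than in the control, 2 were lower and 5 were equal, with a median of 0.00 log2. MXD1, an antagonist that competes with MYC for MAX, was at 6.74 log2 with Mt-CFX, 5.76 with CFX and 5.88 in the control. Its difference of 0.87 log2 in Mt-CFX over control lay beside that of MYC at 0.88, and MAX itself was equal on the 3 arrays. The antagonist MXI1 was higher by 0.16 log2 with each compound at the probe set used, and its other probe set was equal on the 3 arrays.

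All 8 other dual-specificity MAP kinase phosphatases were measured. With Mt-CFX 4 were higher than in the control, 1 was lower and 3 were equal, 0 of them by 1.5-fold. DUSP5, a nuclear ERK phosphatase, was at 7.49 log2 with Mt-CFX, 7.15 with CFX and 6.92 in the control, a difference of 0.58 for Mt-CFX, although its other probe set was equal on the 3 arrays. DUSP8 was higher by 0.28 log2 and DUSP16 by 0.20, DUSP1 by 0.05, and DUSP7 differed by −0.33, beside DUSP4 at −0.45. With CFX 3 of the 8 were higher than in the control, 1 was lower and 4 were equal. DUSP5 and DUSP8 were higher with CFX by 0.23 log2 each, and DUSP7 by 0.14. DUSP2, DUSP9 and DUSP10 were equal on the 3 arrays. The 11 measured of 12 other genes that report ERK pathway output had a median of 0.08 log2 in Mt-CFX over control, with 7 higher, 1 lower and 3 equal and 0 past 1.5-fold. ETV5, an ETS factor induced by ERK, was higher by 0.51 log2. SPRY2, a feedback inhibitor of receptor signalling, was higher by 0.09 log2 and SPRY4 was equal on the 3 arrays.

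Of 40 other immediate early genes 19 were measured above the median, and 10 of them were higher with Mt-CFX than in the control, 4 were lower and 5 were equal, with a median of 0.03 log2. ERRFI1, a feedback inhibitor of the EGF receptor, was at 11.25 log2 with Mt-CFX, 10.58 with CFX and 10.29 in the control, a difference of 0.96 or 1.95-fold for Mt-CFX. PTGS2, the inducible cyclooxygenase, was at 5.98 log2 with Mt-CFX, 4.39 with CFX and 5.03 in the control. It was thus higher than the control by 0.96 log2 with Mt-CFX and differed by −0.63 with CFX, and the compounds were 1.59 log2 apart. The survival gene MCL1 was higher with Mt-CFX by 0.57 log2. With CFX 8 of the 19 were higher than in the control, 3 were lower and 8 were equal, and PTGS2 was the member 1.5-fold apart.

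Upstream of these genes most differences were small. Of the EGF family ligands 5 of 11 were measured above the median, and NRG1, which signals through ERBB3 and ERBB4, was at 6.74 log2 with Mt-CFX, and at 7.37 with CFX and in the control. Its difference of −0.62 log2 in Mt-CFX over control was the only one of the 5 past 1.5-fold, with EREG at 0.20, NRG2 at −0.06, and HBEGF and EGF equal. Of 7 receptors above the median, from 10 measured, 0 were higher with Mt-CFX than in the control, 5 were lower and 2 were equal, with a median of −0.08 log2, and EGFR differed by −0.14, AXL by −0.12 and IGF1R by −0.16. Among 14 measured genes of the RAS, RAF, MEK and ERK list 4 were higher, 2 were lower and 8 were equal. SOS2, an exchange factor that activates RAS, was at 8.19 log2 with Mt-CFX, 7.74 with CFX and 7.30 in the control, a difference of 0.89 for Mt-CFX and 0.44 for CFX. MRAS was higher with Mt-CFX by 0.50 log2, but was at 4.05 log2 on both other arrays, close to the median of all probe sets. SHOC2 was higher with Mt-CFX by 0.30 log2, while MAP2K1, which encodes MEK1, and MAPK3, which encodes ERK1, were equal on the 3 arrays. Of 8 JNK and p38 pathway kinases above the median, from 11 measured, 2 were higher and 2 were lower, with MAP3K5 at −0.39 log2, MAP2K4 at 0.20 and MAP3K7 at 0.15. Of the 8 genes on the list of SRF and its partners 5 were measured, and the ELK partners were not among them. In Mt-CFX over control 0 of the 5 were higher, 3 were lower and 2 were equal. SRF was equal on the 3 arrays. Its coactivators MRTFA and MRTFB differed by −0.51 and −0.42 log2 in Mt-CFX over control, and by 0.01 and −0.17 in CFX over control. The MRTFA inhibitor SCAI was at −0.03 log2 in Mt-CFX over control.

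Downstream, the lists of known EGR1, AP-1 and MYC targets each held genes that were higher, lower and equal, as all genes together did. Of all genes 23.9% were higher with Mt-CFX than in the control, 23.2% were lower and 52.9% were equal. The target counts are from short lists and are not read against these shares. Of 11 EGR1 targets above the median, from 12 measured, 3 were higher with Mt-CFX than in the control, 4 were lower and 4 were equal, with a median of 0.00 log2. The matrix genes THBS1 and FN1 differed by −1.14 and −0.72 log2 in Mt-CFX over control and were the members past 1.5-fold, and NAB2 at 0.45 was the highest. Of 7 AP-1 targets above the median, from 12 measured, 1 was higher, 2 were lower and 4 were equal. The chemokine gene CCL2 was at 3.76 log2 with Mt-CFX, 6.70 with CFX and 7.11 in the control. Its Mt-CFX value was below the median of all probe sets, so the size of its difference of −3.35 log2 is uncertain. The adhesion receptor gene CD44 differed by −0.34 log2. Of 22 measured MYC targets 5 were higher with Mt-CFX than in the control, 9 were lower and 8 were equal, with a median of 0.00 log2, and with CFX 9 were higher, 5 lower and 8 equal, which with so few genes are not read against the shares of all genes. The methyltransferase gene PRMT3 was higher with Mt-CFX by 0.57 log2 and ODC1, an enzyme of polyamine synthesis and a classical MYC target, by 0.42, whereas LDHA differed by −0.73. The lists were drawn up with earlier results of these data known, and coverage was incomplete, with 20 of the 40 other immediate early genes, 12 of the 19 AP-1 targets and 3 of the 7 Sprouty and SPRED inhibitors measured.

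**Figure D4:**
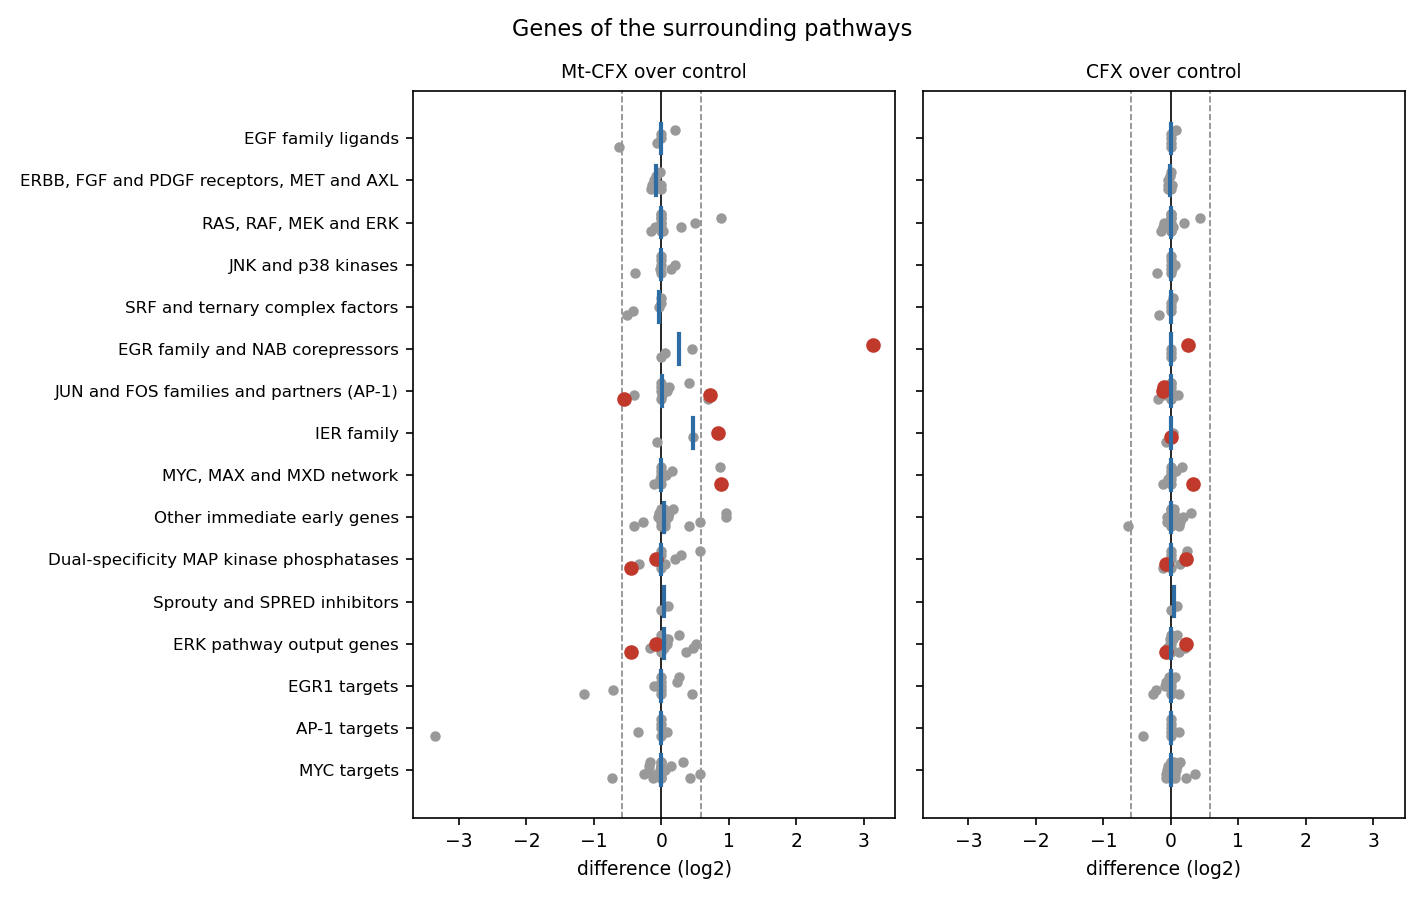
Log2 differences of the genes in 16 lists around the 7 genes, in Mt-CFX over control on the left and CFX over control on the right, with the 7 genes in red, other genes in grey, medians of all genes plotted for a list as blue bars and 1.5-fold as dashed lines. In Mt-CFX over control EGR1 at 3.14 and CCL2 at −3.35 lie far from the others. The list medians there, with the 7 genes included, lie between −0.08 and 0.47. The highest is that of the IER family, which has a median of 0.20 without IER2.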

How the data were processed

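RNA was extracted from MDA-MB-231 cells with Trizol and labelled as sense cDNA with whole-transcript kits, with 1 array for each group, per the labels' protocols. The authors deposited 1 log2 value for each probe set. RMA and Affymetrix Expression Console are named in the submitters' processing notes, while versions, the array annotation release and the genome build were not given in the sources used here. They ran from 0.0868 to 13.1 log2. RMA aligns the distributions of the arrays, so a difference in total RNA is not visible, and the sorted values of any 2 arrays lay within 0.245 log2.

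Of 53617 probe sets 16098 had 1 gene symbol in the platform annotation and 0 had several; the rest were unnamed here. A gene was represented by its probe set with the highest mean, and all probe sets of the 7 genes are given. Protein-coding genes were kept where the highest array reached 3.89 log2. Differences of log2 values were counted at 1.5-fold, with 2-fold as an alternative. The number of arrays limits precision, and no test was possible. Genes, 16 lists and motifs were chosen with earlier results of these data known. Named genes were the 7 genes, the 3 nearest to each, all measured EGR, AP-1, IER and phosphatase relatives, and from the other lists the 3 widest in Mt-CFX over control and any past 1.5-fold; the others named were chosen after their values were seen. Protein sequences were not used here. Counting, re-centring, the nearest-gene search and the motif search were tested on simulated data. Python 3.11.15, numpy 2.4.6, pandas 2.3.3, statsmodels 0.14.6 and matplotlib 3.10.9 were used.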

Additional observations from a re-analysis of the deposited data

How the results depend on the processing

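Alternatives were averaging the probe sets of each gene, the probe set with the lowest mean, re-centring by a lowess curve with a span of 0.3, 2-fold in place of 1.5-fold, and other floors or gene types for the background. A difference was taken as moved when it shifted by over 0.1 log2, and a count or share when it shifted by over 1.5 times. Re-centring shifted the differences of the 7 genes by at most 0.0177 log2. The choice of probe set bears on EGR1 alone, the gene with 2 of them. With the mean of its probe sets EGR1 was higher with Mt-CFX by 2.39 log2 over control and by 2.21 over CFX. EGR1 was then number 3 from the highest of 8827 genes in both, where it was number 1 before, and with the probe set of lowest mean it was number 10 over control and number 9 over CFX, of 8716 genes. With that probe set the EGR1 differences were 1.64 for Mt-CFX over control, 0.11 for CFX over control and 1.54 for Mt-CFX over CFX. Its values of 3.64 log2 with CFX and 3.53 in the control lay below the median of all probe sets. Genes were kept on their highest array, so it entered the 8716 genes only through its Mt-CFX value of 5.17 log2. Its places among those genes are therefore not read as a check on the other probe set. At 2-fold, 1 gene was higher in Mt-CFX over control, 1 was higher in Mt-CFX over CFX and 0 were lower in Mt-CFX over CFX. In CFX over control 0.147% of all genes were 1.5-fold apart in either direction, against 0.0728% with a floor at the 75th percentile, 5.43 log2, and 0.385% with genes of every type. No difference of the 7 genes changed sign under the mean of the probe sets, the probe set of lowest mean or re-centring, where it was not 0. No paired analysis was possible because each group was 1 array. With 1 array per group no replicate could be left out, and how far repeat cultures vary was not measured.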

Other observations

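The 2 EGR1 probe sets stood in different places in the order of probe set numbers, as those of many genes did. Probe set numbers on this array run along the chromosomes by strand. Of the 20 nearest named probe sets around the EGR1 probe set with the higher mean, 18 could be placed on the reference, and 17 of these belong to genes on the strand of EGR1. Around the other EGR1 probe set 17 could be placed, and 16 of these belong to genes on the opposite strand. In all, 208 genes had 1 probe set in each kind of run, taking a run where at least 80% of placed neighbours shared a strand. In Mt-CFX over control, 9 of the 208 differed by 1.5-fold or more at the probe set in their own strand's run, and of these EGR1 alone also did so at the other, at 3.14 and 1.64 log2. At the probe set in the opposite run 4 genes differed by 1.5-fold or more, EGR1 and also ATG101 at 0.63, CDC27 at 0.69 and DDHD1 at 0.73 log2. A difference past 1.5-fold there was thus not particular to EGR1. In their own strand's run ATG101 was at 0.00, CDC27 at −0.05 and DDHD1 at 0.205 log2, unlike EGR1 at 3.14. The level of 3.89 log2 was applied to genes and not to each probe set here. Of the 9 genes that differed in their own strand's run, the 8 besides EGR1 included WARS1, TRIB2 and TIMP3. WARS1 was at 1.05 log2 in its own strand's run and 0.00 in the other, TRIB2 at −1.08 and 0.00, and TIMP3 at −1.13 and −0.27. The gap between the EGR1 probe sets was also the widest of the 424 genes with several probe sets, whose median gap was 0.05 log2. Its size is uncertain, since the CFX and control values of the lower probe set lay under 3.89 log2. Gaps were not set against the size of the differences. At 1 of its probe sets EGR1 had the highest difference of all genes compared in Mt-CFX over control. Which transcripts the probe set in the opposite run reads was not tested, since probe sequences were not used here.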
